A study of Mus musculus with 68 samples.

Results

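The larger set of mouse blastocysts at embryonic day 3.5 compared embryos labelled Ezhip mKO with wild-type embryos, 5 libraries against 5. These 10 libraries are all the mKO and WT columns of the second of the tables for that stage, out of 68 samples in the series. The samples were pre-implantation embryos, from which polyadenylated RNA was sequenced with Smart-seq2, which copies whole transcripts from very little material. The WT group carries the genotype label for wild type and the mKO group the label Ezhip mKO. The table also holds 5 libraries labelled Ezhip mHet, which entered the fit and are given for a few genes. The series' text says that Ezhip was deleted in oocytes or embryos, and does not spell out what the letter m stands for. The labels give no strain, parental genotype or number of embryos per library and do not say whether libraries came from separate litters, so p-values measure only the spread between these libraries, which may be technical.

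A blastocyst is a hollow ball of cells with an outer epithelium, the trophectoderm, that pumps fluid into the cavity and later forms the placenta, and an inner cell mass that gives rise to the epiblast and the primitive endoderm. Ezhip encodes an inhibitor of Polycomb repressive complex 2 (PRC2), the enzyme complex that trimethylates histone H3 at lysine 27 (H3K27me3), a mark of silenced genes. H3K27me3 laid down in the oocyte is known to pass to the embryo, where it silences the maternal copy of a small set of imprinted genes and of Xist, the RNA that coats and silences an X chromosome.

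Ezhip itself, listed as AU022751, checked no label at this stage. It stood at 0 to 1.04 FPKM in the WT libraries and at 0 to 0.351 FPKM in the mKO libraries, below the level at which genes were kept for testing. FPKM counts fragments relative to transcript length and to the size of the library. The read depth behind it is unknown, so no counting interval is given.

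The libraries differed in ways that cross the genotypes. Rn45s, the precursor of ribosomal RNA, took 11.3 to 41.8% of the summed FPKM in WT and 9.19 to 69.5% in mKO. In mKO replicate 4 it took 69.5%, and that library had 4940 genes at 1 FPKM or more, against 6692 to 8299 in the other WT and mKO libraries. The Y-linked transcripts Ddx3y, Eif2s3y, Kdm5d and Uty summed to over 1 FPKM in WT replicates 3 and 7 and in mKO replicates 3 and 6. Xist was at 83.9, 191, 120, 87.5 and 3.72 FPKM in WT replicates 3 to 7 and at 168, 154, 83.2, 28.6 and 85 FPKM in mKO replicates 3 to 7. WT replicate 3 and mKO replicates 3 and 6 therefore held Y-linked transcripts together with Xist above 20 FPKM. Markers of the blastocyst lineages were present: Krt8 was at 148 ± 73.2 FPKM in WT (SD, n = 5), Gata3 at 64.2 ± 10.3, Nanog at 24.1 ± 7.41 and Gata6 at 22.6 ± 4.81. Of 27 markers of maternal blood, uterine and cumulus cells, 22 did not reach the level for testing, and the list summed to 4.18 to 19.14 FPKM in the WT libraries and 3.29 to 34.5 in the mKO libraries. Of the 5 that did, Cd68, a macrophage lysosomal protein, was at 1.97 ± 1.21 FPKM in WT and 5.37 ± 5.1 in mKO, and the alpha globins Hba-a1 and Hba-a2, Wfdc2 and Cyp11a1 had lower means in mKO. With Rn45s removed, as described next, all mKO libraries lay above all WT libraries for Cd68 (log2 change 1.15; limma, adjusted p = 0.424).

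**Figure D1:**
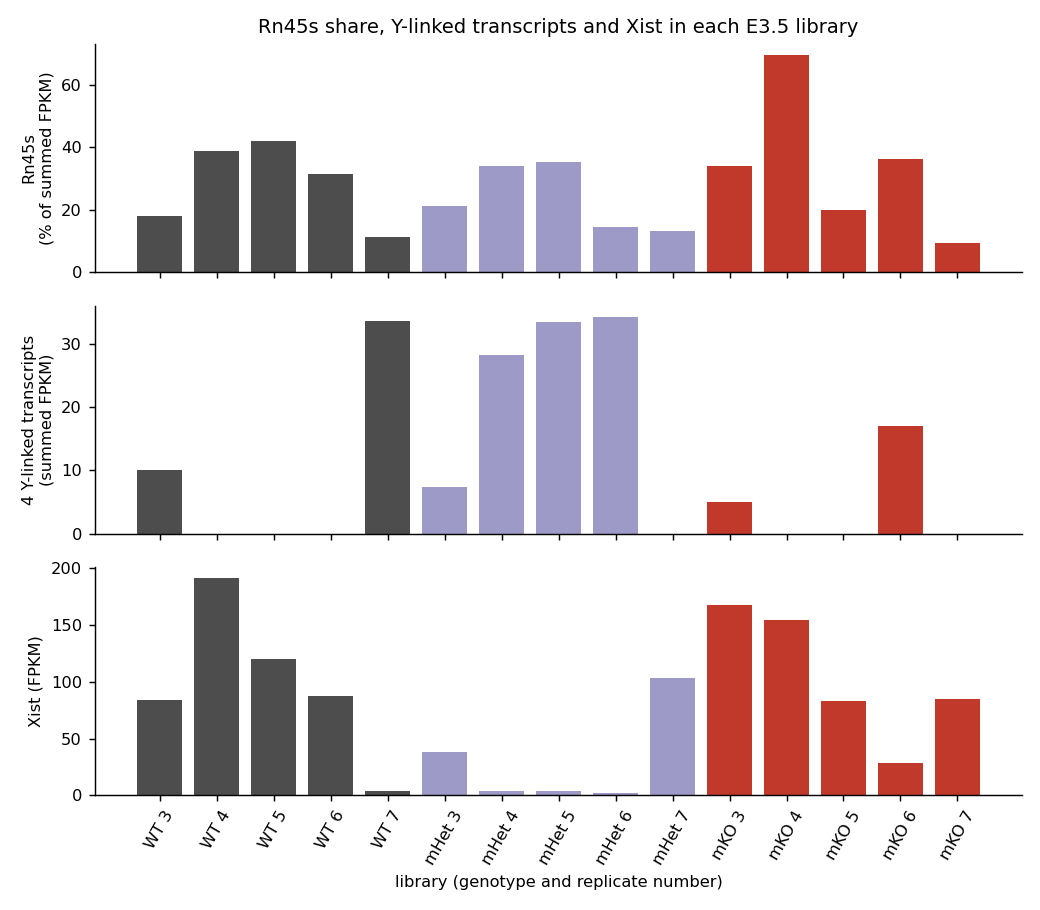
Share of Rn45s in the summed FPKM (%), summed FPKM of 4 Y-linked transcripts and Xist in FPKM, 1 bar per library, for WT (grey), mHet (violet) and mKO (red) libraries. The Rn45s share of mKO replicate 4 (69.5%) is the highest of the 15, and WT and mKO each have Y-linked transcripts in 2 libraries.

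Few genes passed the test between mKO and WT blastocysts, and in the table as deposited all of them were lower in mKO and all but Stag3 lay on the X chromosome. Of 9273 genes that reached 1 FPKM in at least 2 of the 15 libraries, 5 passed an adjusted p of 0.05 (0.0539% of genes tested; limma), 0 higher and 5 lower. Stag3 is on chromosome 5, and the others were Xlr3a, Msn, Fam122b and Firre. At an unadjusted p under 0.05, 61 genes were higher (0.658%) and 473 lower (5.10%). All 5 mKO libraries lay above all 5 WT libraries for 5 genes (0.0539%) and below them for 169 genes (1.82%), and 64.5% of genes had a lower mean log2 level in mKO. The median gene stood at a log2 change of -0.10 on the scale of log2(FPKM + 1). With 1 library left out, 12 genes passed without mKO replicate 7, and 3 did when WT replicate 5, 6, 7, or mKO replicate 5, 6 was the one dropped.

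Removing Rn45s and rescaling each library to its former sum moved that median to 0.001 and moved the directions closer to balance. Of 10118 genes kept, 4 then passed (0.0395%; limma): Plod2 on chromosome 9 rose, and Msn, Xlr3a and Fam122b fell. At an unadjusted p under 0.05, 262 genes were higher (2.59%) and 435 lower (4.30%). All mKO libraries lay above all WT libraries for 57 genes (0.563%) and below them for 105 (1.04%), and 49.8% of genes had a lower mean. Scaling all libraries to the same sum after the removal gave 6 genes, Plod2, Prl3b1 and Epas1 higher and Trap1a, Xlr3a and Msn lower. Leaving out mKO replicate 7 in the run without Rn45s gave 10 genes. The log2 changes of the table as deposited carry the shift of -0.10.

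On the autosomes, Plod2, a lysyl hydroxylase that prepares collagen for cross-linking, was the gene higher in mKO that passed in the run without Rn45s. It was at 2.14, 1.28, 2.68, 2.24 and 2.58 FPKM in WT replicates 3 to 7 and at 8.67, 3.52, 7.97, 8.52 and 14.2 FPKM in mKO replicates 3 to 7. Every mKO library lay above every WT library, and the lowest mKO value was that of replicate 4, the library rich in Rn45s. As deposited, the log2 change of 1.51 (SE 0.31) did not pass (limma, adjusted p = 0.122), and without mKO replicate 4 it was 1.75 and passed (adjusted p = 0.025). With Rn45s removed Plod2 rose, with levels of 2.09 to 4.61 FPKM in WT and 9.94 to 15.7 in mKO, a log2 change of 1.76 (SE 0.24; limma, adjusted p = 0.00407). In that run it passed in each of the 10 fits that left out a library (adjusted p from 0.0058 to 0.0235). The related Plod1 and Plod3 and 15 other collagen and basement membrane genes kept did not pass in the table as deposited. That list held 8 higher and 10 lower means, with a median of -0.15, and its laminin chains Lamb1 and Lamc1 were at 4.31 ± 1.17 and 2.08 ± 0.641 FPKM in WT and 2.83 ± 0.729 and 1.25 ± 0.789 in mKO. The mHet libraries held Plod2 at 2.96 ± 1.29 FPKM (SD, n = 5).

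A gene of cholesterol synthesis also had all mKO libraries above all WT libraries. Sqle, squalene epoxidase, an early oxygen-dependent step of the pathway, was at 1.36, 0.867, 0.536, 2.21 and 0.502 FPKM in WT and at 4.28, 3.16, 2.76, 2.88 and 2.67 FPKM in mKO, in the order of replicates 3 to 7. The lowest mKO library, replicate 7, was above the highest WT library, replicate 6, and the change of 1.03 (SE 0.24) did not pass (limma, adjusted p = 0.238). With Rn45s removed the Sqle libraries overlapped. Ptp4a3 and Sfxn4, named here after their values were seen, also separated the groups, at means under 2 FPKM.

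The other genes of cholesterol synthesis leaned the same way without passing. Of 17 genes kept, 13 had a higher mean in mKO and 4 a lower one (64.5% of all genes were lower). At an unadjusted p under 0.05, 6 were higher (0.658% of all genes) and 0 lower, and 0 passed the adjusted threshold. Besides Sqle, the 6 included Mvd, Fdft1 and Fdps, enzymes that make isoprenoid units or join them to squalene. Mvd, mevalonate diphosphate decarboxylase, was at 0.583 ± 0.422 FPKM in WT, 1.73 ± 0.894 in mKO and 1.53 ± 0.874 in mHet (SD, n = 5 each). The list's median was 0.32 as deposited, beside -0.10 over all genes, and 0.49 with Rn45s removed, beside 0.001. With Rn45s removed, 9 of 20 genes kept were higher at an unadjusted p under 0.05 (2.59% of all genes) and 0 lower.

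**Figure D2:**
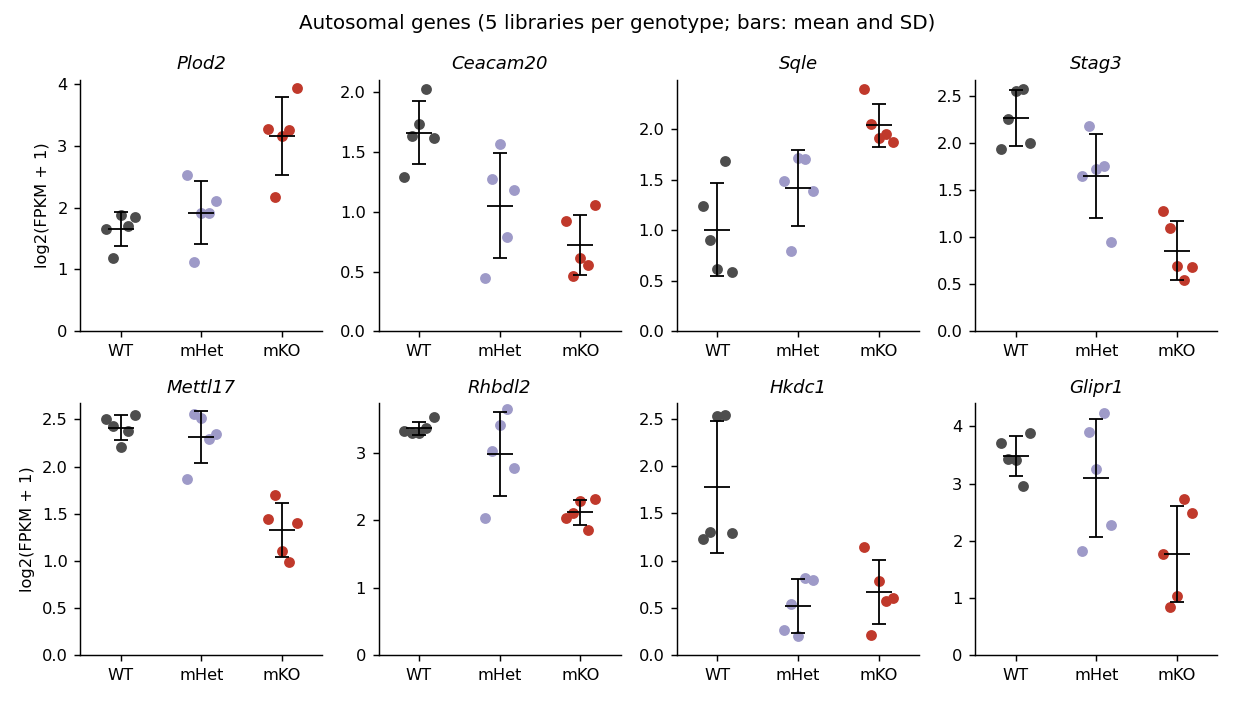
Levels of 8 autosomal genes, as log2(FPKM + 1), in 5 libraries each of WT, mHet and mKO; points are libraries in the order of replicates 3 to 7, the horizontal bar is the mean and the whiskers the SD. For all 8 genes the mKO points do not overlap the WT points, with Plod2 and Sqle higher and the other 6 lower.

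Stag3, the cohesin subunit that holds meiotic chromosomes together, was the autosomal gene that fell in mKO in the table as deposited. It was at 2.82, 3.77, 4.88, 4.94 and 3.01 FPKM in WT replicates 3 to 7 and at 1.42, 1.14, 0.612, 0.455 and 0.609 in mKO replicates 3 to 7. No mKO library reached the lowest WT library, and the mHet libraries, at 0.923 to 3.53 FPKM, overlapped both groups. The log2 change was -1.41 (SE 0.24; limma, adjusted p = 0.0303). The call ended with Rn45s removed (-1.43; limma, adjusted p = 0.211), where the groups overlapped. There only mKO replicate 4, the library rich in Rn45s, reached WT. It was at 3.75 FPKM, beside 0.671 to 2.15 in the other mKO libraries and 3.39 to 8.39 in WT. Without that library Stag3 did not pass in that run either (-1.68; limma, adjusted p = 0.1). As deposited, the call also ended when 1 of WT replicates 4 to 7 (0.0987, 0.0999, 0.121 and 0.0575) or of mKO replicates 5 and 6 (0.155 and 0.141) was left out. The log2 changes ran from -1.51 to -1.33 over all 10 libraries left out. Of the 15 other cohesin and condensin genes kept, 0 passed. Stag2, the somatic counterpart of Stag3 on X, was at 12.8 FPKM in mKO replicate 7 and 0.556 to 1.66 in the other WT and mKO libraries.

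Other germline genes stood low in mKO without passing in either run. Asz1, a protein of the germ cell piRNA machinery, was at 0.743 to 3.05 FPKM in WT and 0 to 1.31 in mKO (-1.14, SE 0.26; limma, adjusted p = 0.229). With Rn45s removed its change was -1.38 (limma, adjusted p = 0.0614). As deposited, Asz1 passed with median ratio scaling, with Rn45s as a covariate and without mKO replicate 7. With Rn45s removed it passed without WT replicate 5 and without mKO replicate 7. Stk31, a Tudor-domain protein of germ cells, was at 2.01 to 3.09 FPKM in WT and 0.623 to 1.89 in mKO, without overlap in either run. Sycp1, which bridges paired meiotic chromosomes and is given here after its values were seen, was at 0.918 to 4.02 FPKM in WT and 0.292 to 0.825 in mKO. Of 14 germline and meiosis genes kept, 11 had a lower mean, 4 were lower at an unadjusted p under 0.05 and 0 higher, and 1 passed (Stag3). Over all genes these shares were 64.5% with a lower mean, 5.10% lower at that p and 0.0539% past the adjusted threshold. Their median was -0.34 as deposited and -0.28 with Rn45s removed. The 11 oocyte-stored transcripts kept had a median of -0.50, with 3 lower at an unadjusted p under 0.05 (5.10% of all genes): Npm2, a chaperone of the egg's chromatin, Oosp1, an oocyte-secreted protein, and Gdf9, an oocyte growth factor, each with mKO means under 0.2 FPKM.

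The promoter of Stag3 is shown with that of Msn, the X-linked gene with the largest change among those that passed, and those of Xlr3a and Xlr3b, members of one X-linked family that both stood low in mKO. They span 250 bases before to 50 bases after the start of the gene in RefSeq (GRCm38.p6, which is not among the builds named for these data), at chr5:138280259-138280558 (plus strand), chrX:96095795-96096094 (plus strand), chrX:73097046-73097345 (minus strand) and chrX:73191929-73192228 (plus strand). Each is written 5′ to 3′ along its gene, with every CG dinucleotide, the site of DNA methylation, in capitals.
Stag3: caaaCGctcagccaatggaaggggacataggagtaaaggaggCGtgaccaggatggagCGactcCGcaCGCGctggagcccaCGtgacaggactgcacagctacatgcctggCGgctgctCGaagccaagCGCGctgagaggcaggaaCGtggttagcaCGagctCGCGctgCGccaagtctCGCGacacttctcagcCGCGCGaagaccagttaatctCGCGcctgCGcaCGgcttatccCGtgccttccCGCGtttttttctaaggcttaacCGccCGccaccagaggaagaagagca
Msn: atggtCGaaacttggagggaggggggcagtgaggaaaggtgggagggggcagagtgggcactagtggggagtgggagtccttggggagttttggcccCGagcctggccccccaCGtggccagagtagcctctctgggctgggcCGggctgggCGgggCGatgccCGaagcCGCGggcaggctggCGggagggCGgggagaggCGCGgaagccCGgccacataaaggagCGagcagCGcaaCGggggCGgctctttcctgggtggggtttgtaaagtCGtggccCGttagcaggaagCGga
Xlr3a: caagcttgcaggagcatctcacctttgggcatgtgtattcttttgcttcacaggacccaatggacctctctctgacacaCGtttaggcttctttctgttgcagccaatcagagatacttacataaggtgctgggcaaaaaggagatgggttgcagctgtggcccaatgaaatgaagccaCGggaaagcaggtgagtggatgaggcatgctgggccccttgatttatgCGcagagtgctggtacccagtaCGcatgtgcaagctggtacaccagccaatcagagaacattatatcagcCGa
Xlr3b: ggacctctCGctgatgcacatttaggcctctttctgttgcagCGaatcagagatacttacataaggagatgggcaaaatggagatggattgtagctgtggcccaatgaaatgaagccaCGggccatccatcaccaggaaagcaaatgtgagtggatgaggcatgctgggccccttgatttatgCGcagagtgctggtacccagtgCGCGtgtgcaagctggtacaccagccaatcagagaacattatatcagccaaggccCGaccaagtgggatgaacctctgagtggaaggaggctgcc
The Stag3 promoter holds 30 CG sites, a number reached by 11.7% of the 32851 promoters in the table, and that of Msn holds 21 (24.8%). Xlr3a holds 5 (62.0%) and Xlr3b 7 (52.1%), where the median promoter holds 7. The genes that fell thus had both CG-rich and CG-poor starts: Fam122b has 19 CG sites and Firre 12. Of the 6 genes past the threshold in either run, Plod2 is not in that table.

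As deposited, most autosomal genes that separated the groups were lower in mKO, 138 of 8941 (1.54%) against 5 higher. With Rn45s removed the split was nearer to even, at 76 lower of 9752 (0.779%) and 56 higher. Among those lower as deposited with a mean of 2 FPKM in WT, the 12 with the smallest p-values included Stag3, Mettl17, Rhbdl2, Ceacam20, Hkdc1, Lenep, Hs3st3b1, Txndc16, Lrrc16a, Ddb2 and Glipr1, of which all but Stag3 missed the threshold (limma, adjusted p from 0.0776 to 0.376). Mettl17, a factor of mitochondrial ribosome assembly, was at 4.68, 4.38, 3.62, 4.21 and 4.83 FPKM in WT and 1.72, 2.24, 1.15, 0.977 and 1.65 in mKO, and it passed without mKO replicate 4 (-1.18, adjusted p = 0.0302). Rhbdl2, a rhomboid protease of the membrane, was at 9.06, 8.78, 8.83, 9.31 and 10.6 FPKM in WT and 3.11, 3.31, 3.86, 2.63 and 3.95 in mKO. The WT libraries varied little around 9.32 FPKM, and the mKO libraries around 3.37. Glipr1, a secreted cysteine-rich protein, was at 6.73 to 13.8 in WT and 0.781 to 5.67 in mKO. Ddb2, a sensor of ultraviolet DNA damage, was at 1.97 to 4.49 in WT and 0.482 to 1.94 in mKO. With Rn45s removed, the mKO and WT libraries of Mettl17, Ddb2, Hkdc1, Lenep, Hs3st3b1, Txndc16 and Lrrc16a overlapped, while those of Rhbdl2, Ceacam20 and Glipr1 did not. For Mettl17, Lenep, Hs3st3b1 and Lrrc16a only mKO replicate 4, the library rich in Rn45s, reached WT in that run. Mettl17 passed there when that library was left out.

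Trophectoderm genes had mostly lower means in mKO. Of 24 kept, 22 were lower (64.5% of all genes) and 2 higher, 6 were lower at an unadjusted p under 0.05 (5.10% of all genes), and 0 passed the adjusted threshold. With Rn45s removed, 18 of 25 kept were lower (49.8% of all genes) and 7 higher. Tspan8, a tetraspanin of epithelia, was at 56, 75.9, 37.1, 25.4 and 98.2 FPKM in WT and 11.8, 7.77, 19.6, 4.21 and 31.8 in mKO, where only mKO replicate 7 exceeded a WT library (-2.02, SE 0.63; limma, adjusted p = 0.502). Gata3, a transcription factor that drives trophectoderm fate, was at 62.7, 62.4, 66.6, 50.4 and 79.1 FPKM in WT and 34.1, 34.7, 36.6, 31.9 and 50.2 in mKO. Its highest mKO library lay just under its lowest WT library (-0.76, SE 0.35; limma, adjusted p = 0.833). With Rn45s removed the groups overlapped through mKO replicate 4 alone, the library rich in Rn45s. It was then at 114 FPKM, beside 45.6 to 55.3 in the other mKO libraries and 73.6 to 114 in WT. Slc2a3, a glucose transporter, was at 17.1 ± 3.99 against 9.12 ± 4.02 FPKM and Tfap2a, an AP-2 transcription factor, at 3.63 ± 1.12 against 1.87 ± 0.485, in WT and mKO (SD, n = 5 each). Cdx2, the factor that defines the lineage, did not differ beyond its spread, with a 95% interval of the log2 change from -0.76 to 0.70, and Krt8 had one from -1.60 to 0.74. Summed over the list, the WT libraries held 802.7 to 2347 FPKM and the mKO libraries 381.8 to 1923. The list's median was -0.43 as deposited and -0.32 with Rn45s removed. In whole embryos, fewer cells of a type and less RNA per cell cannot be told apart.

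The channels and pumps of the blastocoel, the fluid cavity, showed the same lean. Of 9 kept, 8 had a lower mean (64.5% of all genes) and 3 were lower at an unadjusted p under 0.05 (5.10%), with a median of -0.49 as deposited and -0.46 with Rn45s removed. Fxyd6, a modulator of the sodium pump, was at 1.14 to 3.16 FPKM in WT and 0.0954 to 0.465 in mKO, without overlap (-0.97, SE 0.25; limma, adjusted p = 0.315). Aqp8 and Aqp9, water channels, were at 1.49 ± 0.951 and 4.2 ± 2.1 FPKM in WT and at 0.285 ± 0.296 and 1.95 ± 1.75 in mKO. Atp1b3, a sodium pump subunit, was the member with a higher mean in mKO.

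Genes of the inner cell mass were split between the directions. Of 23 kept, 13 had a higher and 10 a lower mean (64.5% of all genes were lower), with a median of 0.02. At an unadjusted p under 0.05, 3 were lower (5.10% of all genes). These were Otx2, a factor of the later epiblast (1.42 ± 0.788 FPKM in WT, 0.305 ± 0.273 in mKO), Klf2, a factor of naive pluripotency (8.25 ± 2.35 and 4.57 ± 1.67), and Fgf4, the ligand that sets primitive endoderm apart from epiblast (1.33 ± 0.634 and 0.58 ± 0.488). The Klf2 groups did not overlap as deposited and did with Rn45s removed. Pou5f1, Nanog and Sox2, the core pluripotency factors, had intervals of the log2 change from -1.55 to 1.58, -0.63 to 1.48 and -0.87 to 0.39. Among 12 primitive endoderm genes kept, 5 had a higher and 7 a lower mean. Cubn, an endocytic receptor of this tissue, was at 0.746 ± 0.291 FPKM in WT and 0.331 ± 0.203 in mKO. Gata6, the factor that starts the lineage, was at 22.6 ± 4.81 FPKM in WT and 33.6 ± 14.2 in mKO, and Gata4 stayed at or under 0.141 FPKM in all 10 libraries.

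The autosomal genes imprinted through oocyte H3K27me3, normally transcribed from the paternal copy, did not pass in either run. Of 13 kept, 8 had a higher mean in mKO and 5 a lower one (64.5% of all genes were lower), with a median of 0.08. At an unadjusted p under 0.05, 2 were higher and 1 lower (0.658 and 5.10% of all genes). With Rn45s removed, 12 of 16 kept had a higher mean and 4 a lower one (49.8% of all genes were lower), and the median was 0.19. At that p, 5 were higher and 1 lower (2.59 and 4.30% of all genes). As deposited, the 1 lower was Otx2, which the inner cell mass list also holds. Sox21, a SOX-family factor, was at 1.49 ± 0.609 FPKM in WT and 2.72 ± 1.24 in mKO. Gab1, a signalling adaptor, was at 3.31, 2.16, 1.75, 1.19 and 4.33 FPKM in WT and at 2.9, 2.68, 3.99, 4.64 and 9.65 in mKO (0.66, SE 0.32; limma, adjusted p = 0.888). Epas1, a hypoxia-inducible factor, was at 3.27 to 8.24 FPKM in WT and 4.19 to 22.3 in mKO. Its change of 1.08 passed when Rn45s was removed and all libraries were brought to the same sum (1.23; limma, adjusted p = 0.0393), but not with each library's own sum (1.29, adjusted p = 0.211). Slc38a4, an amino acid transporter, was at 5.26 to 11.4 FPKM in WT and at 1.73 to 3.65 in mKO replicates 3 to 6, with 14.9 in mKO replicate 7. Sfmbt2, a Polycomb-group gene, was likewise at 0.781 to 2.1 in mKO replicates 3 to 6 and 15.6 in replicate 7, against 1.48 to 6.23 in WT. Jade1, a subunit of histone acetyltransferase complexes, was at 1.26 ± 0.495 in WT and 1.73 ± 0.578 in mKO, and Smoc1 was at or under 0.929 FPKM. With Rn45s removed, all mKO libraries lay above all WT libraries for Jade1 (1.24 to 2.25 FPKM in WT, 2.49 to 2.82 in mKO). The same held for Epas1 (4.78 to 9.29 and 13.8 to 24.6), beside 0.563% of all genes. The groups of Sox21, Gab1, Slc38a4, Sfmbt2 and Smoc1 overlapped in that run. The PRC2 subunits themselves did not pass either: Ezh2, the catalytic subunit, was at 14.4 ± 4.01 FPKM in WT and 14.8 ± 6.24 in mKO, Suz12, a core scaffold, at 23.4 ± 4.89 and 19 ± 6.28, and 9 of 10 subunits had a lower mean (64.5% of all genes), with a median of -0.18. With Rn45s removed, 6 of 11 subunits had a lower mean and 5 a higher one, with a median of -0.09.

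The medians of the housekeeping lists moved toward 0 with Rn45s removed. Over all genes, 64.5% had a lower mean as deposited and 49.8% with Rn45s removed. Of 58 cytosolic ribosomal protein genes, 51 had a lower mean in mKO as deposited, with a median of -0.19, and 32 with Rn45s removed, with a median of -0.01. Of 37 respiratory chain genes, 34 were lower as deposited (median -0.31) and 27 with Rn45s removed (-0.14). Cox6c, a cytochrome oxidase subunit, was at 921 ± 536 FPKM in WT and 612 ± 448 in mKO. The ribosomal and respiratory chain medians kept their sign in both runs, as did those of cholesterol, trophectoderm, blastocoel, germline and oocyte-stored genes. The trophectoderm (-0.43 to -0.32) and germline (-0.34 to -0.28) medians also moved toward 0. Among 19 kept stress genes (p53 and integrated stress response), 12 had a higher mean, beside 3290 of 9273 over all genes. None of them reached an unadjusted p under 0.05, and their median was 0.18. With Rn45s removed, 16 of 21 had a higher mean, beside 5079 of 10118 over all genes. In that run 3 were higher at an unadjusted p under 0.05 (2.59% of all genes) and the median was 0.36. Bbc3, which triggers cell death, was at 0.733 ± 0.537 FPKM in WT and 1.42 ± 0.492 in mKO, and Cdkn1a, a cell cycle inhibitor, was at 1.11 to 18.8 FPKM in WT and 9.65 to 49.6 in mKO. The mHet libraries held Bbc3 at 1.00 ± 0.852 FPKM. Cdkn1a was at 20.7 ± 14.4 FPKM in mHet, beside 9.15 ± 6.51 in WT and 22.8 ± 16.1 in mKO (SD, n = 5 each). Prl3b1, a prolactin-family hormone made by trophoblast giant cells, was at 0 to 3.47 FPKM in WT and 5.79, 0.949, 6.41, 8.64 and 38.7 in mKO replicates 3 to 7 (2.30, SE 0.72; limma, adjusted p = 0.503).

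**Figure D3:**
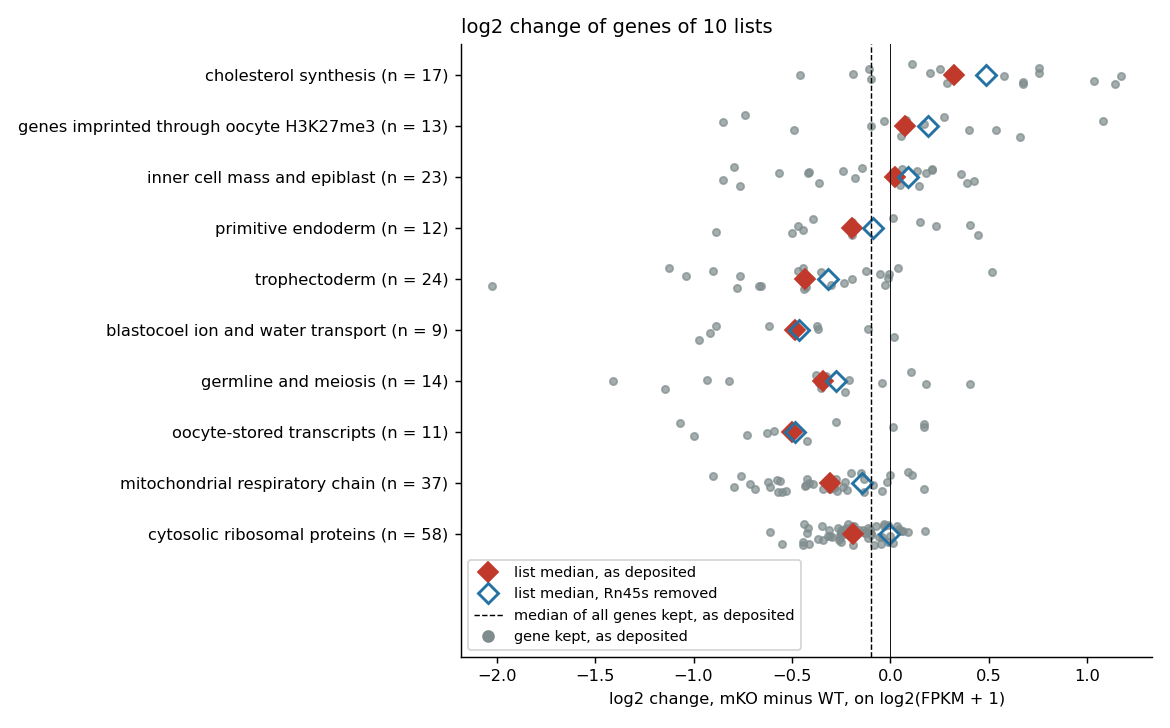
log2 change of mKO minus WT on log2(FPKM + 1), 1 grey point per gene kept, for 10 gene lists; filled diamonds are list medians as deposited, open diamonds those with Rn45s removed, and the dashed line is the median of all genes kept (-0.10). The cholesterol median lies to the right of the line (0.32), while the trophectoderm, blastocoel, germline and oocyte-stored medians lie to its left in both runs. So does the respiratory chain median (-0.31 as deposited and -0.14 with Rn45s removed).

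On X, Msn fell furthest among the genes that passed. It encodes moesin, which ties actin filaments to the plasma membrane, and it was at 9.59, 11.1, 6.06, 7.77 and 13.9 FPKM in WT replicates 3 to 7 and at 1.7, 0.736, 2.35, 1.37 and 1.2 in mKO replicates 3 to 7. The highest mKO library was far below the lowest WT library. The mHet libraries, at 5.15 to 13.3 FPKM, overlapped WT. The log2 change was -2.10 (SE 0.30; limma, adjusted p = 0.00724) and -2.13 with Rn45s removed (0.00407). Of the 2 other proteins of its family, Rdx had a lower mean and Ezr a higher one, and neither passed; of 33 junction and actin cortex genes kept, 1 passed. Prkcz, an atypical protein kinase C of the apical domain, was at 4.33 ± 1.13 FPKM in WT and 2.71 ± 1.19 in mKO.

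Members of the multicopy Xlr family, which lie on X and may share reads, stood low as well. Xlr3a was at 4.79, 3.9, 2.66, 2.64 and 5.54 FPKM in WT and at 0.442, 0.35, 0.18, 0.268 and 0.209 in mKO, and fell in both runs (-1.89, SE 0.26; limma, adjusted p = 0.00724 as deposited and 0.00407 with Rn45s removed). Xlr3b was at 1.94, 4.08, 2.35, 5.76 and 7.49 FPKM in WT and at 0.598, 0.0952, 0, 0.0756 and 0.97 in mKO and stayed just over the threshold (-1.92; limma, adjusted p = 0.0522 and 0.051). Xlr4b, at 3.57 to 9.53 FPKM in WT and 0.0888 to 1.8 in mKO, did not pass (-1.81; adjusted p = 0.09), nor did Xlr4c, given after its values were seen, at 3.65 to 5.35 and 0.346 to 1.85. In none of these 4 did a mKO library reach a WT library. Xlr5a and Xlr5b stood near no change, at log2 changes of -0.03 and -0.05 and group means of at most 0.449 FPKM. Of 13 genes of the X-linked multicopy and placental list kept, 5 were lower at an unadjusted p under 0.05 and 0 higher, beside 5.10% of all genes and 60 of 290 X-linked genes that were lower at that p. Their median was -0.05 as deposited and -0.42 over the 14 kept with Rn45s removed.

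Fam122b and Firre completed the genes that passed. Fam122b was at 5.13, 6.03, 6.6, 13.3 and 6.08 FPKM in WT and at 1.77, 0.707, 1.19, 1.4 and 0.921 in mKO (-1.89, SE 0.28; limma, adjusted p = 0.00852 as deposited and 0.0149 with Rn45s removed). With Rn45s removed its call ended without WT replicate 4 (0.0521) or 5 (0.0539) or mKO replicate 5 (0.0766), and with all libraries at the same sum (0.141). Firre, a long non-coding RNA that anchors chromatin in the nucleus, was at 2.04, 1.23, 1.88, 4.31 and 2.94 FPKM in WT and at 0.507, 0.484, 0.245, 0.265 and 0.097 in mKO (-1.34, SE 0.22; limma, adjusted p = 0.0259). Its call ended with Rn45s removed (-1.44; limma, adjusted p = 0.0614). In that run it passed when mKO replicate 4, the library rich in Rn45s, was left out (-1.62; limma, adjusted p = 0.0162). It did so with no other library left out. As deposited, the Firre call ended when 1 of WT replicates 5 to 7 (0.0523, 0.0734 and 0.0921) or of mKO replicates 5 and 6 (0.119 and 0.112) was left out. Leaving out any of the 10 libraries ended neither the Msn nor the Xlr3a call (adjusted p from 0.00759 to 0.0311 for both).

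Other X-linked genes were as far down without passing. Plac1, a placental gene of the trophoblast surface, was at 5.53, 6.49, 4.07, 2.08 and 5.38 FPKM in WT and at 0.0833, 0, 0.181, 0 and 0 in mKO, but its mHet libraries ran from 0 to 12.9 (-2.38, SE 0.53; limma, adjusted p = 0.229). With the mHet libraries left out of the fit it passed (adjusted p = 0.00177). Hmgn5, a nucleosome-binding protein, was at 32.9, 25.6, 22, 41.4 and 53.5 FPKM in WT and at 7.81, 3.28, 12.6, 15.8 and 11.3 in mKO (-1.77; limma, adjusted p = 0.238). Trap1a, an antigen of tumour cells and trophoblast, was at 12.5 to 81.5 FPKM in WT and 0.526 to 10.8 in mKO (-2.37; limma, adjusted p = 0.272). Hmgn5 and Trap1a are given after their values were seen, and Trap1a passed with all libraries at the same sum (0.0319).

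**Figure D4:**
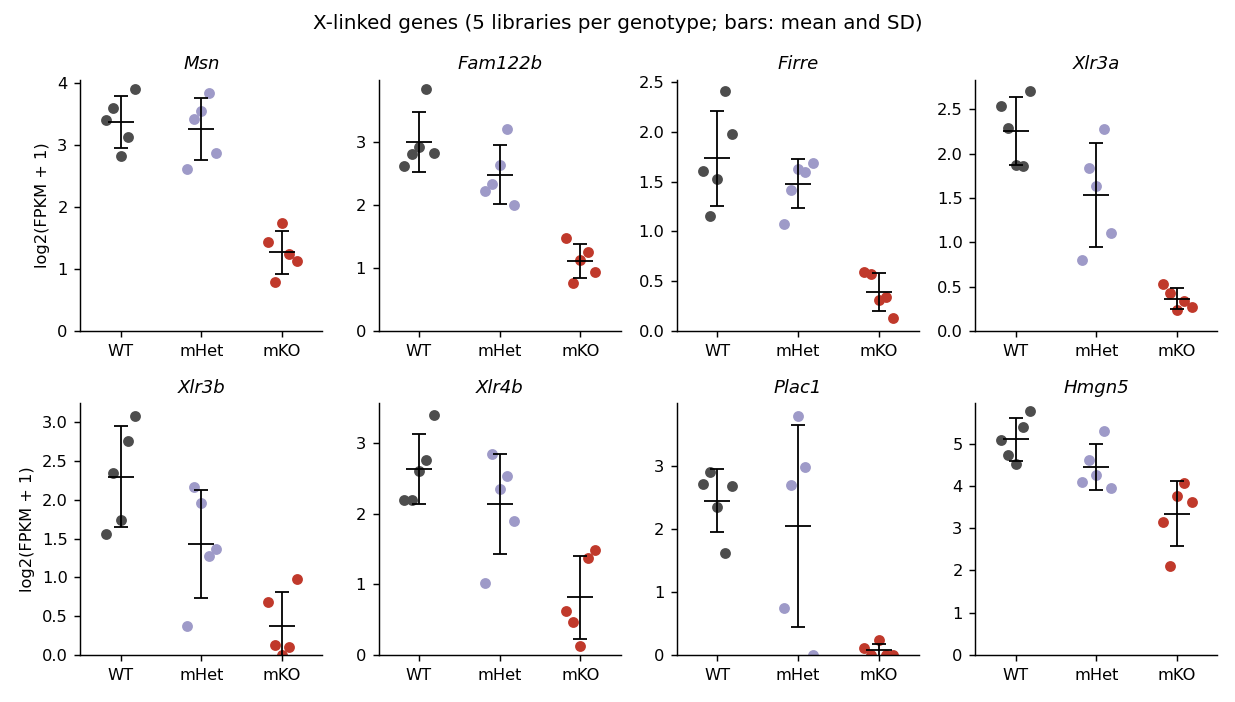
Levels of 8 X-linked genes, as log2(FPKM + 1), in 5 libraries each of WT, mHet and mKO; points are libraries in the order of replicates 3 to 7, the horizontal bar is the mean and the whiskers the SD. In all 8 panels every mKO point is below every WT point, while mHet points reach into the WT range in each panel.

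X-linked genes as a class were lower in mKO relative to the autosomes. Of 290 kept, 212 had a lower mean (73.1%) with a median of -0.26, and of 8941 autosomal genes 64.1% had a lower mean with a median of -0.095. With Rn45s removed these were 67.5% and -0.22 on X, and 49.1% and 0.007 on the autosomes. All mKO libraries were below all WT libraries for 31 X-linked genes (10.7%), beside 1.82% of all genes, and above for 0. Taken library by library, the median X-linked deviation from the WT mean minus the autosomal one ran from -0.11 to 0.15 in WT and from -0.44 to -0.06 in mKO, so the groups overlapped as deposited. With Rn45s removed they did not, at -0.08 to 0.17 in WT and -0.49 to -0.15 in mKO. Replicate 6, which held Y-linked transcripts, was the lowest mKO library in both runs. The mHet libraries ran from -0.27 to -0.07 as deposited and from -0.28 to -0.06 with Rn45s removed. In both runs mHet replicates 3 to 6, which held Y-linked transcripts, lay below all WT libraries, so a low X-linked level was not particular to mKO.

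**Figure D5:**
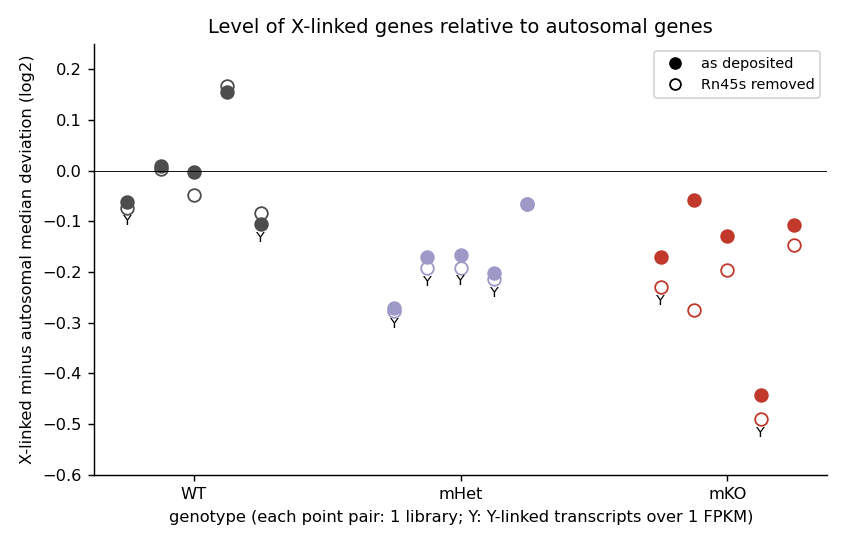
Median deviation of X-linked genes from the WT mean minus that of autosomal genes (log2), 1 filled point per library as deposited and 1 open point with Rn45s removed; Y marks libraries with Y-linked transcripts over 1 FPKM. The open mKO points (-0.49 to -0.15) lie below the open WT points (-0.08 to 0.17), and mHet libraries reach down to -0.28.

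The X-linked differences had the same direction in libraries with and without Y-linked transcripts. WT and mKO each had 2 libraries with Y-linked transcripts and 3 without. Of the mHet libraries, which also entered these fits, replicates 3 to 6 held such transcripts and replicate 7 did not. Among libraries with them, Msn stood at a log2 change of -2.31 and Xlr3a at -2.19, and among libraries without them at -1.96 and -1.69; 0 genes passed in either subset (limma, 1298 and 270 genes at an unadjusted p under 0.05). Fam122b was at -1.35 and -2.24, Firre at -1.33 and -1.36, Stag3 at -1.06 and -1.64 and Plod2 at 1.52 and 1.5. With a term for these transcripts, Xlr3a, Msn and Fam122b passed, while Firre (0.051) and Stag3 (0.0575) did not. Xist and Tsix, its antisense partner, whose reads cannot be told apart where they overlap, did not differ beyond their spread, with intervals of the log2 change from -1.63 to 2.73 and from -2.18 to 3.09. WT replicate 7, with Y-linked transcripts at 33.6 FPKM, was the only WT library with low Xist. No mKO library was as low, and both mKO libraries with Y-linked transcripts also held Xist. Without the libraries that held both, Msn was at -2.14 and Xlr3a at -1.87, and 0 genes passed (limma, 307 genes at an unadjusted p under 0.05).

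The levels in 2 other tables of the series are set beside these values, each on its own scale. In the first table for embryonic day 3.5, with 2 libraries a genotype, Plod2 was at 3.85 and 3 FPKM in WT and 13.1 and 17.3 in mKO, and Sqle at 5.82 and 3.07 against 7.41 and 12.9. Msn was at 16.4 and 37.6 FPKM in WT and 8.45 and 5.82 in mKO, Xlr3a at 3.99 and 24.5 against 1.53 and 2.54, and Stag3 at 7.08 and 2.51 against 3.43 and 3.16. These 5 genes did not pass in that table (limma, adjusted p from 0.402 to 0.949). Prl3b1 did, at 0 and 0.156 FPKM in WT but 6.93 and 11.8 FPKM in the mKO libraries (3.23, SE 0.39; limma, adjusted p = 0.04997), where 0.0203% of genes tested passed with a higher level. There both WT libraries held Y-linked transcripts and both mKO libraries Xist, so sex and genotype cannot be told apart. At E4.25, Plod2 was at 0.475 to 12.1 FPKM in WT and 2.8 to 5.46 in mKO, Msn at 2.03 to 18.7 against 7.92 to 46.2, and Stag3 at 0 to 2.43 against 2.28 to 7.75. Stag3 rose in mKO at that age (2.01, SE 0.47; limma, adjusted p = 0.0153), where 14.3% of genes tested passed with a higher level. In that table Rn45s took 60.5 and 68.6% of 2 WT libraries and at most 52.4% of a mKO library.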

How the data were processed

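Smart-seq2 libraries of mouse embryos at embryonic day 3.5 were read from a table of FPKM values deposited by the authors, with 5 WT, 5 mHet and 5 mKO columns. Per the submitters' processing notes HISAT2 2.2.1, HTSeq 0.6.0 and Trim Galore 0.4.2 were used, and hg19 and mm9 appear as builds without a stated role. How FPKM was computed, the annotation, strand use and the treatment of multi-mapping reads are items not given in the sources used here, so values of multicopy genes are uncertain. The depth is unknown: among genes low in both of 2 libraries, at most 3.74% shared the commonest ratio of values, so no read counts were recovered.

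Of 24083 rows, 27 with names turned into dates were dropped. Chromosomes came from the RefSeq GRCm38.p6 gene table by symbol (99.5% matched). Genes reaching 1 FPKM in at least 2 of the 15 libraries were tested on log2(FPKM + 1) with limma 3.58.1 in R 4.3.3 (eBayes with trend), two-sided, with all 3 genotypes sharing 1 estimate of the spread and Benjamini-Hochberg adjustment over all genes kept at 0.05. The script was tested on simulated data. A second run removed Rn45s and rescaled each library to its former sum. The first table for that age and the one for E4.25, also deposited as FPKM, were fitted separately, the latter with 2 identical mHet libraries counted once. Gene lists are described by counts and medians, with no test.

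The genes and lists were chosen with earlier results of these data known. The text names every gene that passed, the 12 autosomal and 5 X-linked genes in each direction with the smallest p among those with a mean of 2 FPKM in the higher group and groups that do not overlap, up to 3 members of each list described, lineage-defining genes, imprinted genes and sex checks. Predicted genes are not named, and some genes that this rule selects are not reported here. Sycp1, Xlr4c, Hmgn5, Trap1a, Ptp4a3, Sfxn4 and further list members such as Ezh2 and Fdps were chosen after their values were seen. Alternatives covered the pseudocount, filters, scaling, covariates, a replicate block and libraries left out.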

Additional observations from a re-analysis of the deposited data

Results flagged for a closer look

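Of 156 groups of 5 libraries checked for a library far from the others, 11 had one, where chance flags about 1 in 20 groups (5%). Values here are log2(FPKM + 1). Among WT libraries, replicate 7 was far below the others for Xist (2.2378) and Tsix (3.0387) and far above for Aqp9 (3.1528), replicate 6 was far above for Fam122b (3.8342), and replicate 4 was far above for Fxyd6 (2.0571) and Cyp11a1 (1.8078). Among mKO libraries, replicate 7 was far above for Stag2 (3.7893), Sfmbt2 (4.0558) and Npm2 (0.15412), and replicate 6 for the Y-linked Uty (1.4888) and Kdm5d (0.74316).

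At E4.25, 8 genes whose mKO libraries all lay below WT at embryonic day 3.5 as deposited had all mKO libraries above all WT libraries. The difference between the ages was not tested. Their log2 changes at the later age were 2.5011 for Rhbdl2, 2.184 for Txndc16, 2.177 for Ddb2, 1.6655 for Mettl17, 1.2827 for Lenep, 1.0896 for Lrrc16a, 1.0555 for Hs3st3b1 and 0.96859 for Klf2. At the later age 21.6% of all genes tested lay above WT in the same way, and Rn45s took 60.5 and 68.6% of 2 WT libraries. At embryonic day 3.5 with Rn45s removed, the mKO and WT libraries overlapped for all of these 8 genes but Rhbdl2. For Mettl17, Lenep, Hs3st3b1 and Lrrc16a only mKO replicate 4, the library rich in Rn45s, reached WT there.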

How the results depend on the processing

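The number of genes past the threshold (limma; 5 in all, 1 autosomal and 4 X-linked as deposited) depended on the settings, and no result changed direction while called. Without a filter on low values the counts were 3 in all and 0 autosomal, with median ratio scaling 12, 2 and 10 X-linked, with the WT and mKO libraries alone 8 and 2, with a sex term or the Y-linked level as a term 3 and 0, and with Rn45s as a covariate 22, 13 and 9 X-linked. Without the library rich in Rn45s (mKO replicate 4) 3 autosomal genes passed, and with Rn45s removed and all libraries at the same sum 3 did. Within libraries with Y-linked transcripts, within those without, and without libraries that held both Y-linked transcripts and Xist, 0 genes passed in each class, with 1298, 270 and 307 genes at an unadjusted p under 0.05. Fitted and adjusted alone, 0 autosomal genes passed, with 475 at an unadjusted p under 0.05. Where autosomal counts fell to 0 without a filter, with a sex term and with the Y-linked level, 982, 449 and 436 were at an unadjusted p under 0.05. Leaving out each library gave 3 to 12 genes in all and 0 to 6 autosomal, the highest without mKO replicate 7 and the lowest (3 and 0) when WT replicate 5, 6, 7, or mKO replicate 5, 6 was left out, with 0 autosomal also without WT replicate 4. With Rn45s removed, where 4 genes passed, the WT and mKO libraries alone gave 7, and leaving out each library gave 3 to 10, the highest without mKO replicate 7.

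The replicate numbers did not pair the libraries uniformly. The correlations of same-numbered WT and mKO deviations were -0.199, 0.475, -0.406, 0.147 and 0.701 for replicates 3 to 7. Of 5 WT libraries 2, replicates 4 and 7, correlated best with their own number. Replicate 7 had the lowest Rn45s share of each genotype (11.3, 13.1 and 9.19% in WT, mHet and mKO). Whether some numbers shared a batch was not tested. A replicate block gave 11 genes in all, 4 autosomal and 7 X-linked, and 10 with Rn45s removed. As deposited, 831 genes were at an unadjusted p under 0.05 with the block and 534 without it (limma). The alternatives on the Y-linked and Xist levels, on the common sum and within the run without Rn45s were chosen after seeing the data. Over single genes and list medians, 3756 values under other settings stayed the same. For a gene this means the same direction and side of the threshold, and for a list median a shift within its spread between libraries. Another 98 moved: a gene changed direction with no call in either fit, or a median shifted beyond that spread. Among genes, 42 values gained and 40 lost a call. The depth behind the FPKM is unknown, so no counting error can be given for levels under 1 FPKM.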
